A study of Mus musculus with 16 samples.

Results

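The genes described here encode the proteins of the cytosolic ribosome in mouse adipose tissue. They were chosen by name alone: every listed gene whose symbol is Rpl or Rps followed by a number, with at most an a, x or l after it, together with Rplp0, Rplp1, Rplp2 and Rpsa. Processed pseudogenes (-ps symbols) and the Rps6k kinases were left out. The rule found 78 of the 17883 listed genes: 30 of the small subunit, 45 of the large subunit and 3 of the stalk. A further 19 listed genes whose symbols start with Rpl or Rps lay outside the rule, among them 10 Rps6k kinases and 3 -ps rows. The 3 -ps rows reached at most 0.877 RPKM (the authors' unit, reads scaled to gene length and library size) in any library. Rps3a1 and Rpl36al were also outside the rule by their spelling, and Rps27 was not analysed here.

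All libraries came from adipose tissue of C57BL/6 mice aged 8 weeks, in 8 groups of 2. The cKO cold group carried the METTL3 flox/flox alleles and Adipoq-Cre +/-, a Cre driver active in adipocytes, and was housed singly at 4 °C for 7 days. The WT cold group carried METTL3 flox/flox without Cre and had the same cold housing. The WT RT group was METTL3 flox/flox and untreated. RNA captured with an antibody to N6-methyladenosine (m6A) and input RNA were sequenced in the 3 conditions, and ribosome-protected fragments (footprints) in both cold conditions. The floxed alleles are shared by all groups, and no group without them was analysed here. The labels name no adipose depot and do not say whether replicates are separate animals, and the p-values therefore describe the spread among these libraries alone. Codes of the WT RT libraries belong to a different series from those of all cold libraries, and effects of temperature and of code series cannot be told apart.

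A ribosome is built from 1 copy of almost every one of these proteins, except for the acidic stalk proteins Rplp1 and Rplp2, which sit on Rplp0 as dimers and recruit the elongation factors. In mammals most of these mRNAs are short, abundant and stable. They start with a C inside a run of pyrimidines, the 5′ terminal oligopyrimidine (TOP) tract, through which mTOR signalling and the RNA-binding protein LARP1 control their translation together. METTL3 is the catalytic subunit of the complex that writes m6A on mRNA, mostly in long internal exons and near stop codons. Members of the family also share the habit of leaving many processed pseudogene copies in the genome, so reads from these short mRNAs can match several places. How such reads were treated is not given in the sources used here, and levels of single members are uncertain to that extent.

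The annotated starts of members that the results turn on are shown to let the TOP tract be seen beside the values. Each line holds 30 bases of the sense strand from RefSeq, build GRCm38.p6, with the annotated first base of the RNA at base 11, and capitals mark a C followed by at least 4 further C or T bases that begins within 5 bases of that start. The first 5 are members with such a tract, and the last 4 are members with none beginning there.
Rpl12, chr2:32961702-32961731, plus strand: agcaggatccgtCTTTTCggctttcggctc
Rplp2, chr7:141447641-141447670, plus strand: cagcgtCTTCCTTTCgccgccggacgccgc
Rps6, chr4:86857348-86857377, minus strand: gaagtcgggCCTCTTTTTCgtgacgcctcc
Rpl15, chr14:18270967-18270996, minus strand: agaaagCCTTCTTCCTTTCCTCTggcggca
Rps27l, chr9:66946076-66946105, plus strand: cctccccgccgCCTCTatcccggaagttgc
Rps16, chr7:28350679-28350708, plus strand: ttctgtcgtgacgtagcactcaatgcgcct
Rplp0, chr5:115559457-115559486, plus strand: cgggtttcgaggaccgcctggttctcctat
Rpl41, chr10:128549149-128549178, minus strand: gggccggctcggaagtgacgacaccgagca
Rpl39l, chr16:10170218-10170247, plus strand: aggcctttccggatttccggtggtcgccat
Of the 78 members, 58 have an entry in the RefSeq table, and 27 of those (46.6%) hold a tract in at least 1 annotated start, against 5718 of all 27025 genes in that table (21.2%). Only the sense strand was searched. A match describes the letters around an annotated start, and a window without one says only that no such run begins within 5 bases of the start.

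Recovered reads on listed genes numbered 3895031 to 8673393 in the inputs and 4883129 to 6426541 in the m6A libraries. Footprint libraries held at least 1676208 to 2461267 reads. Mettl3 itself had 3.83 and 1.90 RPKM in the inputs labelled cKO, against 5.24 and 3.66 RPKM in the WT cold inputs, so that the groups overlapped. The WT RT inputs had 10.8 and 9.27 RPKM of Mettl3. Its footprints were not lower where labelled cKO, with 8.99 and 5.22 RPKM there and 4.60 and 4.82 RPKM in the WT cold libraries. The groups are therefore called by their labels throughout. Adipocyte genes were present everywhere: Adipoq ranged from 471 to 724 RPKM over the 6 inputs. Mitochondrially encoded genes, Lars2 and Gm20594, a gene that took up to 64.3% of a footprint library, held 23.7% and 24.3% of all RPKM in the inputs labelled cKO, against 41.2% and 40.2% for WT cold and 18.2% and 19.0% for WT RT.

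Ribosomal protein mRNAs were among the most abundant in the tissue. By mean input RPKM, 34 of the 78 members lay in the top 1% of all listed genes and 65 in the top 5%, while 3 lay under the median gene. The highest were Rplp1 with a mean of 686 RPKM over the 6 inputs and Rps15 with 552. The lowest were Rpl10 with 0.547 RPKM, Rpl3l with 0.618 and Rps10 with 0.820. Rpl10 and Rps10 encode core proteins, and at most 11 reads of either were recovered from any input. Rpl3l is the striated-muscle paralog of Rpl3. It had 0 and 2.80 RPKM in the inputs labelled cKO, against 0.252 and 0 for WT cold and 0.657 and 0 for WT RT. The sum of 10 skeletal muscle genes was 4.26 and 164 RPKM in the inputs labelled cKO, against 0.812 and 7.71 for WT cold and 285 and 10.8 for WT RT. Where that sum was 164 RPKM, Rpl3l had 2.80 RPKM on 15 reads. Where it was 285 RPKM, Rpl3l had 0.657 RPKM on 7 reads. The part of muscle RNA in these values was not tested.

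The length by which the authors divided differs between members and bears on these levels. Recovered input lengths had a median of 869 bases over the members, with a range of 383 to 5179, against a median of 2842 over all genes above 0. Rps15a, at 5179 bases, Rps20, at 3706, and Rpl18, at 2989, had mean input levels of 17.2, 35.9 and 43.6 RPKM. Footprint values share no recovered length scale with the inputs, so footprints and inputs of a gene are set beside each other only between groups.

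**Figure D1:**
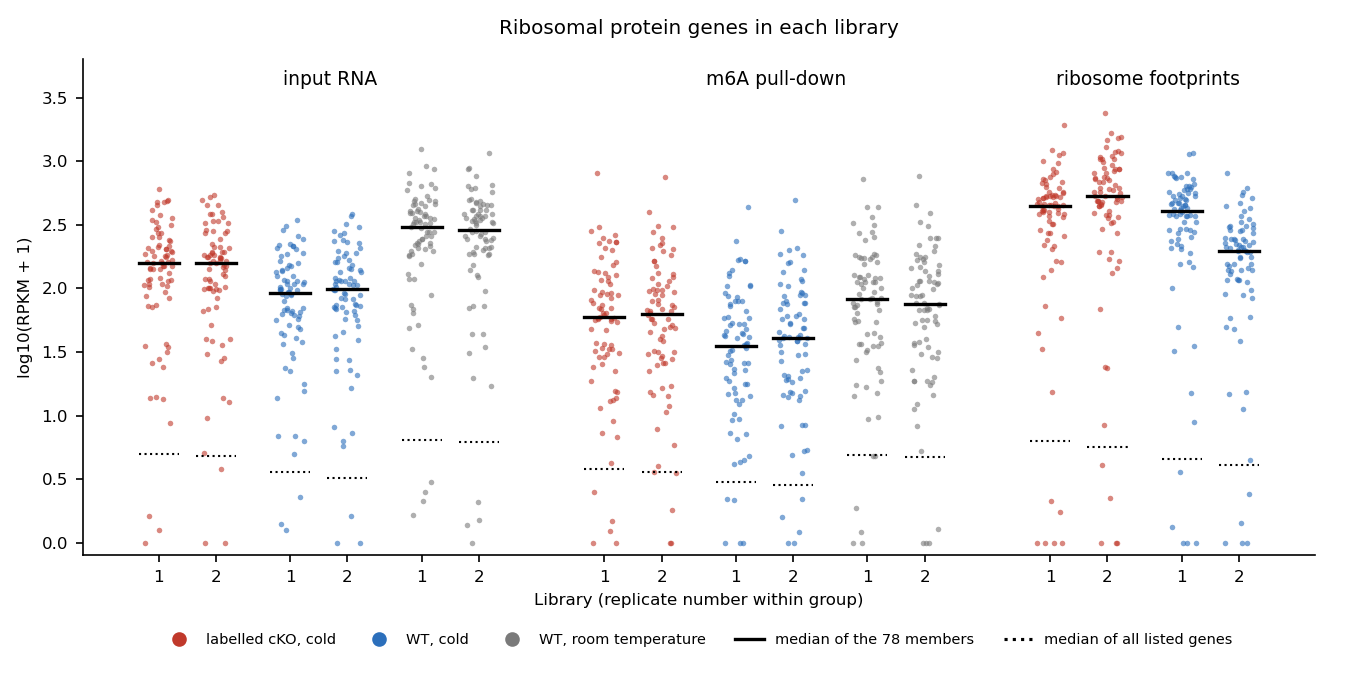
Each point is 1 of the 78 ribosomal protein genes in 1 library, as log10(RPKM + 1), with thick bars for the members' median and dotted bars for the median of all listed genes. In the inputs, members' medians were 157 and 158 RPKM in the libraries labelled cKO, 90.8 and 97.6 in WT cold, and 301 and 287 in WT RT.

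Cold housing of WT mice went with lower ribosomal protein mRNA in nearly the whole family. Summed over the 78 members, the level was 7951 and 8946 RPKM in the WT cold inputs, against 24870 and 24403 RPKM in the WT RT inputs. For the small subunit the sum was 3254 and 3599 RPKM in WT cold, against 10960 and 10680 in WT RT. For the large subunit it was 4304 and 4885 RPKM in WT cold, against 12100 and 11990 in WT RT. The 3 stalk genes gave 393 and 462 RPKM in WT cold, against 1812 and 1738 in WT RT. No sum of a class overlapped between the conditions.

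Of the 77 members that passed the filter of at least 1 RPKM in 2 inputs, 74 had lower WT cold than WT RT values and 1 had higher ones (limma, adjusted p under 0.05). Over all 12667 genes tested, 51.2% were called lower and 6.52% higher. On the log2(RPKM + 1) scale, which understates changes of low genes, the median difference (WT cold minus WT RT) was -1.62 over the members and -0.67 over all genes. In 74 of the 77 members both WT cold values lay under both WT RT values, as in 70.4% of all genes. With libraries rescaled to a common median ratio, which moved the all-gene median to -0.06 and the members' median to -0.87, 58 members were lower and 2 higher, against 20.5% and 18.8% of all genes. The 2 higher were Rpl39l and Rps27l, and under that scaling Rpl24 (0.08) and Rpl9 (0.04) lost their negative sign.

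The stalk genes and Rpl12 at the base of the stalk were among the members with large falls. Rplp0, the scaffold of the stalk, had 107 and 112 RPKM in WT cold, against 445 and 446 RPKM in WT RT. Rplp1 had 259 and 317 RPKM in WT cold, against 1238 and 1153 in WT RT. Rplp2 had 27.3 and 32.6 RPKM in WT cold, against 129 and 138 in WT RT. The log2 differences of these 3 genes were -2.01 ± 0.11, -2.06 ± 0.15 and -2.13 ± 0.14 (SE, n = 2 each; adjusted p = 5.99e-05, 0.000136 and 9.48e-05). Rpl12, an rRNA-binding protein, had the largest fall of all members. It had 47.1 and 55.0 RPKM in WT cold, against 349 and 329 in WT RT, a log2 difference of -2.71 ± 0.14 (adjusted p = 4.81e-05).

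In the small subunit, Rps16, whose tail reaches the P site, had 68.6 and 81.4 RPKM in WT cold, against 399 and 368 in WT RT (-2.34 ± 0.13, adjusted p = 6.45e-05). Rps15a had 5.92 and 6.33 RPKM in WT cold, against 32.5 and 33.7 in WT RT, and fell by 2.26 on the log2 scale. Rps13 had 67.1 and 72.4 RPKM in WT cold, against 327 and 343 in WT RT, and fell by 2.25. Rps6, the substrate of the S6 kinases downstream of mTOR, had 180 and 190 RPKM in WT cold, against 637 and 645 in WT RT (-1.79 ± 0.11). Rpsa, which doubles as a laminin receptor, had 107 and 107 RPKM in WT cold, against 402 and 411 in WT RT (-1.92 ± 0.11). For each of these 5 genes both WT cold inputs lay far under both WT RT inputs.

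In the large subunit, Rpl13 had 66.4 and 87.2 RPKM in WT cold, against 369 and 370 in WT RT, and fell by 2.27. Rpl5 and Rpl11, which with 5S rRNA bind MDM2 when ribosome assembly fails, fell by 1.91 and 1.23. The smallest called falls were those of Rpl24 (-0.67 ± 0.14, adjusted p = 0.00682) and Rpl9 (-0.69 ± 0.14, adjusted p = 0.00605), close to the all-gene median. Rpl24 was no longer called without either WT RT input (adjusted p = 0.0512 and 0.0572), and Rpl9 not without the first (adjusted p = 0.0830). The median differences of the classes were -2.06 for the stalk, -1.76 for the small subunit and -1.49 for the large subunit, a description with no test between them.

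Rpl39l, a paralog of Rpl39 known for its expression in testis, had 4.01 and 4.74 RPKM in WT cold, against 1.12 and 0.503 in WT RT. It was the member called higher, at 1.59 ± 0.30 (adjusted p = 0.00442), on 28 and 17 reads in WT cold and 7 and 3 reads in WT RT. Its partner Rpl39 had 59.2 and 65.7 RPKM in WT cold, against 154 and 153 in WT RT (-1.28 ± 0.12). Rps27l, a p53-inducible paralog of Rps27, had 21.5 and 26.2 RPKM in WT cold, against 19.1 and 16.2 in WT RT (0.41 ± 0.17, adjusted p = 0.0784). Without the first WT cold input it was called, at 0.55 (adjusted p = 0.0483). Rps10, at under 2 RPKM in every input, was the other member not called (-0.07 ± 0.42). Rpl10 was called lower (-0.96 ± 0.25), but not without the second WT cold input (adjusted p = 0.0922). Rpl3 and Rps4x, the abundant genes that have paralogs, fell by 1.76 and 1.54.

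**Figure D2:**
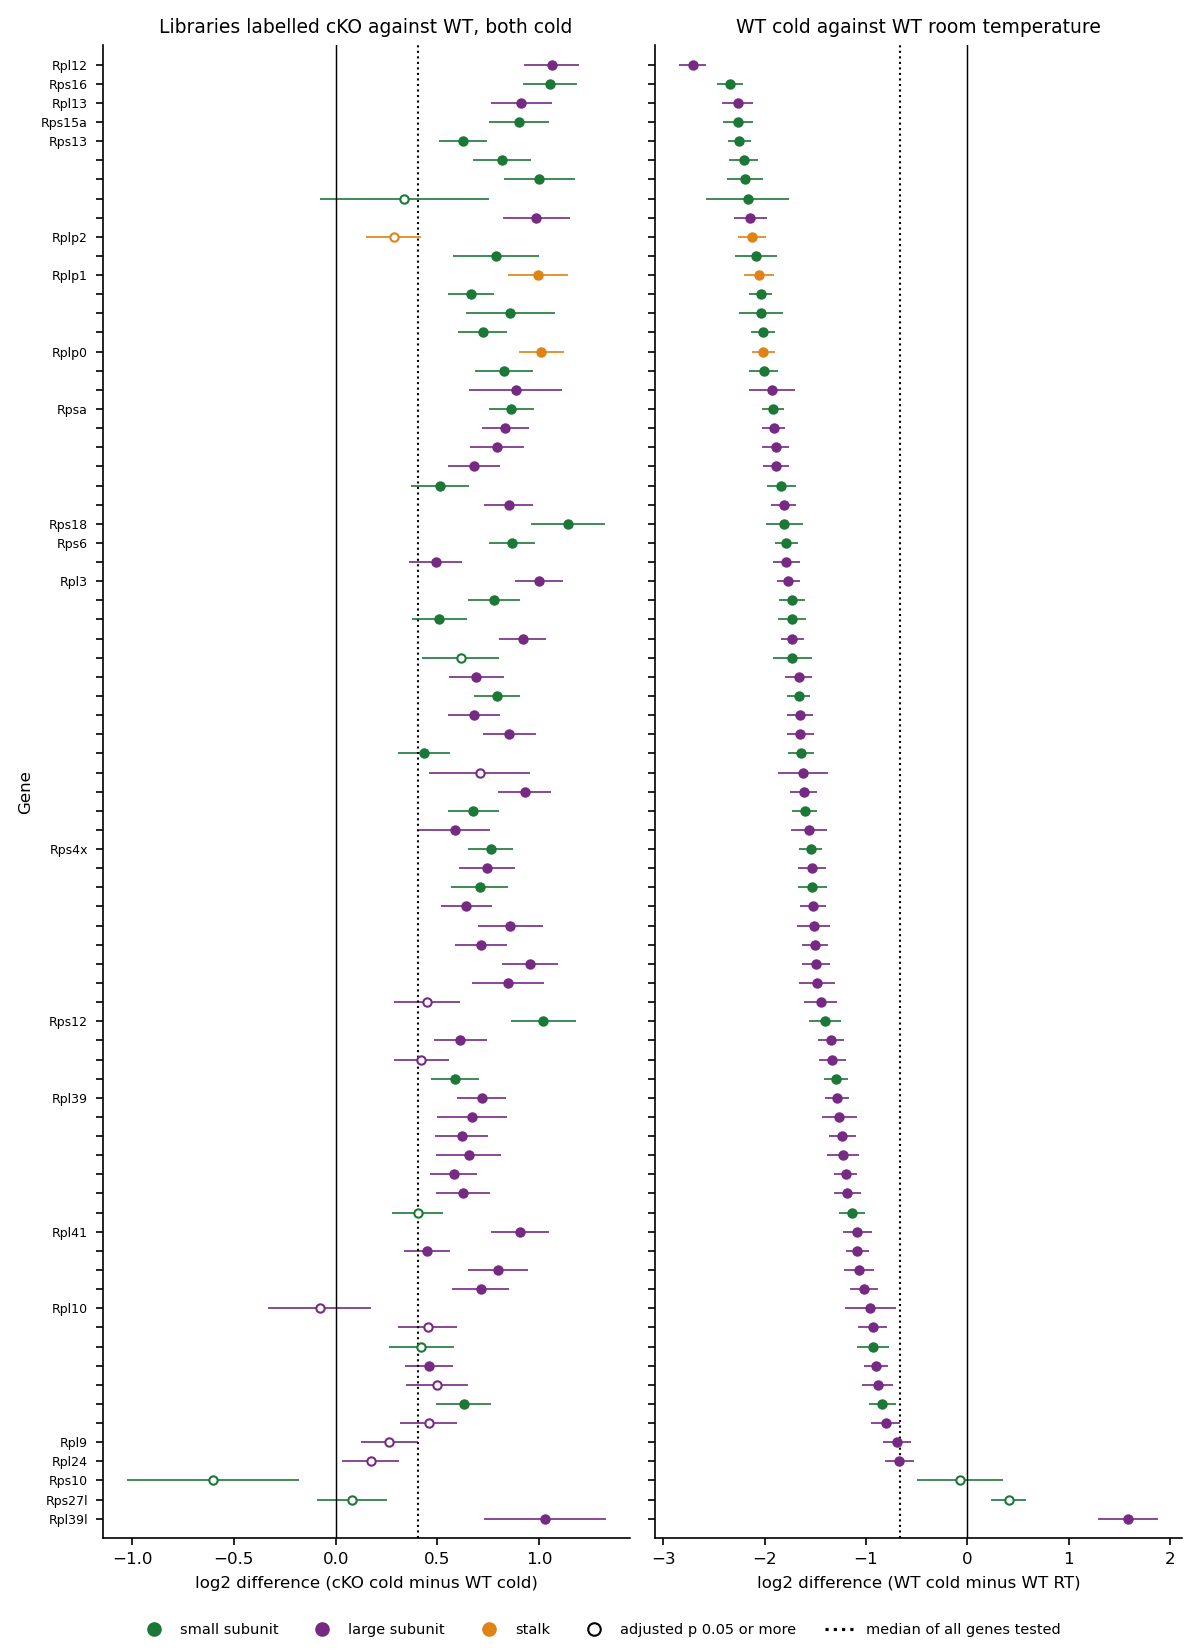
Log2 differences with standard errors of the 77 tested members, in the order of their change with cold, for libraries labelled cKO against WT cold (left) and for WT cold against WT RT (right), coloured by class, with a selection of the members named in the text labelled. Filled points have adjusted p under 0.05. With cold 75 members lay under 0, most of them left of the all-gene median of -0.67 (dotted line). The 2 comparisons share the WT cold inputs. With median-ratio scaling, Rpl24 and Rpl9 change sign on the right, and the called members Rpl7, Rpl17, Rpl38 and Rps19 on the left.

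Cell type markers also differed between these inputs, beside shares of 51.2% lower and 6.52% higher over all genes. All 16 listed T and B cell markers were lower in WT cold: their sum was 1.53 and 2.08 RPKM in WT cold, against 1134 and 1058 RPKM in WT RT, and Cd79a was at 0 in both WT cold inputs. Of 13 tested macrophage markers 8 were lower, with sums of 249 and 255 RPKM in WT cold, against 856 and 914 in WT RT. Fibroblast and preadipocyte markers fell in 4 of 10, with sums of 1724 and 1605 RPKM in WT cold, against 3631 and 3478 in WT RT. Thermogenic genes were higher in 9 of 10, with sums of 2124 and 1653 RPKM in WT cold, against 146 and 210 in WT RT, and adipocyte genes higher in 6 and lower in 1 of 12. Of 8 endothelial markers 2 were lower, and of 9 tested skeletal muscle genes 1 was lower. Fibroblast, endothelial and muscle counts did not exceed the share called lower over all genes. In bulk tissue, fewer cells of a type and less RNA per cell cannot be told apart. The part of these cell types in the fall of ribosomal protein mRNA was not tested.

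**Figure D3:**
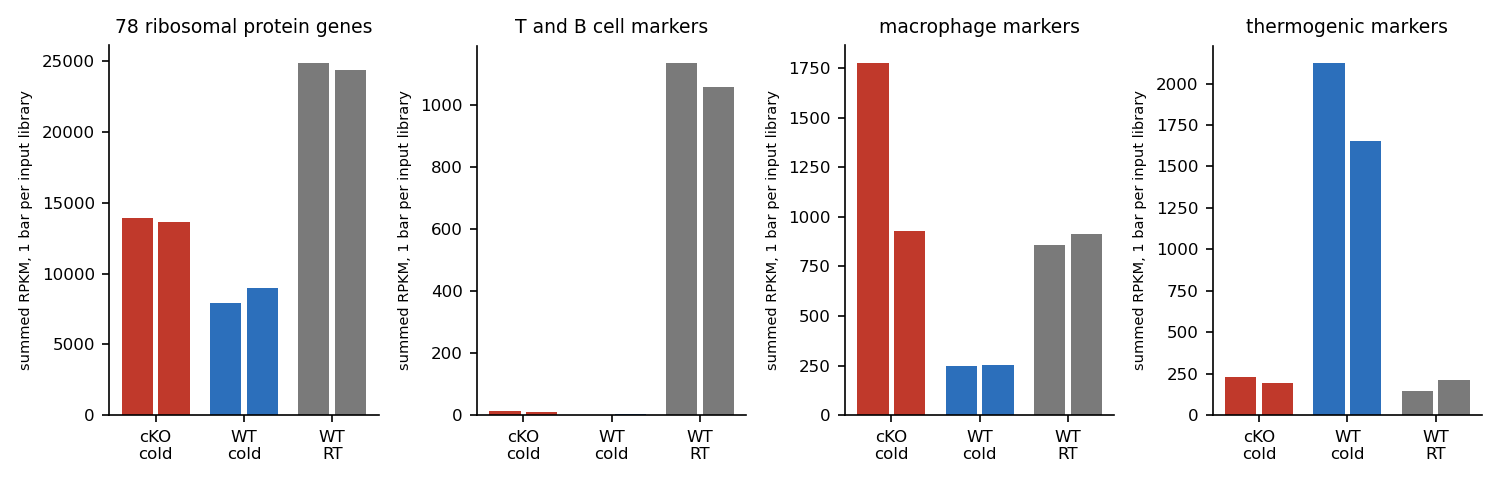
Summed RPKM in each of the 6 inputs (1 bar per library, axes from 0) for the 78 ribosomal protein genes and for marker lists of T and B cells, macrophages and thermogenic adipocytes. The ribosomal protein sum was lowest in WT cold (7951 and 8946 RPKM), where the T and B cell sum was 1.53 and 2.08 RPKM and the macrophage sum 249 and 255 RPKM.

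In the cold, inputs labelled cKO held more ribosomal protein mRNA than WT inputs. The sum over members was 13950 and 13643 RPKM in the inputs labelled cKO, against 7951 and 8946 RPKM in WT cold. Of the 77 tested members, the group labelled cKO was higher in 61 and lower in 0 (limma, adjusted p under 0.05). Over all genes 23.6% were called higher and 2.92% lower. The 0 members called lower compare with 582 genes lower at an unadjusted p under 0.05 over the whole table. The median log2 difference (cKO cold minus WT cold) was 0.71 over the members and 0.40 over all genes. In 72 of 77 members both values of the group labelled cKO lay above both WT cold values, as in 56.8% of all genes. In 1, Rps10, both lay below, as in 8.44% of all genes.

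This count depended on how libraries were scaled. With median-ratio scaling, which brought the all-gene median to 0.02, the members' median was 0.22, and 2 members were called higher, Rplp0 and Rpl3, against 5.97% of all genes. Under that scaling 4 called members, Rpl7, Rpl17, Rpl38 and Rps19, changed sign.

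Rplp0 had 220 and 223 RPKM in the inputs labelled cKO, against 107 and 112 in WT cold, a log2 difference of 1.01 ± 0.11 (SE, n = 2 each; adjusted p = 0.00475). Rpl3, a core protein near the peptidyl transferase centre, had 210 and 210 RPKM in the inputs labelled cKO, against 111 and 98.4 in WT cold (1.00 ± 0.12, adjusted p = 0.00511). Rplp1 had 602 and 544 RPKM in the inputs labelled cKO, against 259 and 317 in WT cold (0.99 ± 0.15, adjusted p = 0.00806). In none of the 3 did the genotypes overlap. Rplp2, the partner of Rplp1 in the stalk, was not called. It had 35.9 and 37.3 RPKM in the inputs labelled cKO, against 27.3 and 32.6 in WT cold (0.28 ± 0.14, adjusted p = 0.152), and turned to -0.20 with median-ratio scaling.

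The largest rise was that of Rps18, a small subunit protein of the head, which had 132 and 130 RPKM where labelled cKO, against 48.6 and 71.0 in WT cold (1.14 ± 0.18, adjusted p = 0.00912). Rpl12 had 115 and 100.2 RPKM in the inputs labelled cKO, against 47.1 and 55.0 in WT cold (1.06 ± 0.14). Rps16 had 160 and 153 RPKM in the inputs labelled cKO, against 68.6 and 81.4 in WT cold (1.05 ± 0.13). Rps12 rose by 1.02 ± 0.16, with 479 and 518 RPKM in the inputs labelled cKO, against 215 and 280 in WT cold. Rps6 and Rpsa each rose by 0.86 ± 0.11, Rps4x by 0.76 ± 0.11 and Rpl39 by 0.72 ± 0.12. None of these genes overlapped between the genotypes.

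Rpl39l was again among the members that rose, with 7.71 and 12.8 RPKM where labelled cKO, against 4.01 and 4.74 in WT cold (1.03 ± 0.30, adjusted p = 0.0446). It was not called without either WT cold input or without the second input labelled cKO (adjusted p = 0.108, 0.0933 and 0.138), nor with the replicate number as a block (adjusted p = 0.0555). Rps27l, with 23.1 and 27.2 RPKM in the inputs labelled cKO, against 21.5 and 26.2 in WT cold, gave 0.08 ± 0.17. Of the 16 members not called, the smallest differences beside it were those of Rpl10 (-0.08 ± 0.25), Rpl24 (0.17 ± 0.14), Rpl9 (0.26 ± 0.14) and Rplp2. Among the others were Rps10, Rps23, Rps28, Rpl7a, Rpl13a, Rpl23a, Rpl26, Rpl27 and Rpl28.

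Most members of the inputs labelled cKO lay between both WT conditions. In 71 of 77 members both values of the inputs labelled cKO were above both WT cold values and below both WT RT values, an order found in 27.9% of all genes. Against WT RT alone, 74 of 77 were lower in both inputs labelled cKO, as were 50.5% of all genes. Both steps of this order use the inputs labelled cKO. For Rplp1 the levels were 602 and 544 RPKM in the inputs labelled cKO, 259 and 317 in WT cold, and 1238 and 1153 in WT RT. For Rpl12 they were 115 and 100.2 RPKM in the inputs labelled cKO, 47.1 and 55.0 in WT cold, and 349 and 329 in WT RT.

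Markers of other cells moved beside the rise in the inputs labelled cKO. Over all genes 23.6% were called higher and 2.92% lower. Of 13 tested macrophage markers 11 were higher, with sums of 1777 and 930 RPKM in the inputs labelled cKO, against 249 and 255 in WT cold. The ribosomal protein sums in the same inputs labelled cKO were 13950 and 13643 RPKM. Fibroblast and preadipocyte markers rose in 9 of 10, with sums of 4769 and 2348 RPKM in the inputs labelled cKO, against 1724 and 1605 in WT cold. T and B cell markers summed to 11.7 and 10.5 RPKM in the inputs labelled cKO, against 1.53 and 2.08 in WT cold, and 2 of 16 rose. Thermogenic genes fell in 9 of 10, to sums of 227 and 191 RPKM in the inputs labelled cKO, against 2124 and 1653 in WT cold. Adipocyte genes were lower in 4 and higher in 1 of 12, 1 of 8 endothelial markers rose, and none of 9 skeletal muscle genes was called. With median-ratio scaling, 10 of 13 macrophage markers and 2 of 10 fibroblast and preadipocyte markers were higher, against 5.97% of all genes. None of the T and B cell or endothelial markers was then higher, and 9 of 10 thermogenic genes stayed lower. The part of these cells in the rise was not tested.

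Most ribosomal protein mRNAs were depleted from the m6A pull-down. The sum over members was 7047 and 7231 RPKM in the m6A libraries labelled cKO, against 13950 and 13643 RPKM in their inputs. It was 4149 and 4880 RPKM in the WT cold m6A libraries, against 7951 and 8946 RPKM in their inputs. It was 8817 and 8422 RPKM in the WT RT m6A libraries, against 24870 and 24403 RPKM in their inputs. In the libraries labelled cKO, 61 of 77 members were lower in m6A than in input and 4 higher, against 35.2% and 11.4% of all 13062 genes tested. In WT cold 60 were lower and 3 higher, against 25.6% and 13.7% of all genes. In WT RT 70 were lower and 1 higher, against 34.6% and 16% of all genes.

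The median log2 ratio of m6A over input was -1.20 over the members and -0.30 over all genes in the libraries labelled cKO. In WT cold it was -1.06 over the members and -0.11 over all genes. In WT RT it was -1.73 over the members and -0.25 over all genes. The small subunit had a lower median than the large subunit in each condition: -1.59 against -1.04 in the libraries labelled cKO, -1.64 against -0.95 in WT cold, and -1.88 against -1.40 in WT RT. These class medians are a description. RPKM in a pull-down is relative to that library. A ratio under 0 thus says only that a gene's RPKM was lower in m6A than in input, and does not count m6A sites. The all-gene median was itself under 0 in each condition.

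Rpl30, a protein at the interface of the subunits, was the most depleted member in all 3 conditions. It had 14.7 and 13.4 RPKM in the m6A libraries labelled cKO, against 150 and 183 in their inputs (-3.47 ± 0.30, adjusted p = 1.93e-05). It had 5.57 and 13.2 RPKM in WT cold m6A, against 78.9 and 107 in input (-3.27 ± 0.30), and 22.9 and 17.6 RPKM in WT RT m6A, against 259 and 258 in input (-3.62 ± 0.30). Rps21 gave -2.87 ± 0.21 in the libraries labelled cKO, -2.86 ± 0.21 in WT cold and -3.23 ± 0.21 in WT RT. Rps29 gave -3.22 ± 0.21 in the libraries labelled cKO, -2.36 ± 0.21 in WT cold and -2.84 ± 0.21 in WT RT. Rps27a, made as a fusion to ubiquitin, gave -2.42 ± 0.13 in the libraries labelled cKO, -2.67 ± 0.13 in WT cold and -3.03 ± 0.13 in WT RT.

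Rpl41, which encodes the shortest protein of the ribosome, stood at the other end. It had 814 and 753 RPKM in the m6A libraries labelled cKO, against 455 and 387 in their inputs, a log2 ratio of 0.90 ± 0.14 (adjusted p = 0.000444). In WT cold it had 438 and 493 RPKM in m6A, against 207 and 240 in input (1.06 ± 0.14, adjusted p = 0.000225), and in WT RT 728 and 763 RPKM in m6A, against 463 and 487 in input (0.65 ± 0.14, adjusted p = 0.00283). It was the member highest in m6A over input in each condition, with every m6A library above every input of its condition.

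Rpl14 was higher in m6A in the libraries labelled cKO (0.80 ± 0.14, adjusted p = 0.00103) and in WT cold (0.56 ± 0.14, adjusted p = 0.00931), and gave -0.13 ± 0.14 in WT RT. In WT cold it was not called without the first input or without the second m6A library (adjusted p = 0.0580 and 0.0723). Rplp2 was higher in m6A in the libraries labelled cKO (0.46 ± 0.15, adjusted p = 0.0308) and in WT cold (0.46 ± 0.15, adjusted p = 0.0344), and lower in WT RT (-0.84 ± 0.15, adjusted p = 0.00125). Both cold calls of Rplp2 were lost without single libraries: the first WT cold input or either WT cold m6A library (adjusted p = 0.178, 0.155 and 0.0621), and either input or the second m6A library labelled cKO (adjusted p = 0.102, 0.0723 and 0.195). With median-ratio scaling the WT cold call of Rplp2 was lost as well. With the replicate number as a block, 5 members were higher in WT cold, among them Rpl14, Rpl28, Rpl41 and Rplp2, against 19.4% of all genes.

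The other stalk genes were depleted throughout. Rplp0 gave -1.61 ± 0.13 in the libraries labelled cKO, -1.56 ± 0.13 in WT cold and -1.996 ± 0.13 in WT RT. Rplp1 gave -2.48 ± 0.13 in the libraries labelled cKO, -1.95 ± 0.13 in WT cold and -2.72 ± 0.13 in WT RT. The 3 proteins of 1 complex thus differed in their ratio of m6A over input, with Rplp2 above both others in every pair of libraries. Of the abundant genes with paralogs, Rps4x gave -2.22 ± 0.14 in the libraries labelled cKO, -2.08 ± 0.14 in WT cold and -2.77 ± 0.14 in WT RT. Rpl3 gave -1.62 ± 0.10 in the libraries labelled cKO, -1.35 ± 0.10 in WT cold and -2.08 ± 0.10 in WT RT. Rpl39 gave -1.85 ± 0.13 in the libraries labelled cKO, -2.16 ± 0.13 in WT cold and -2.35 ± 0.13 in WT RT. Rpsa gave -1.05 ± 0.11 in the libraries labelled cKO, -1.24 ± 0.11 in WT cold and -1.75 ± 0.11 in WT RT.

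**Figure D4:**
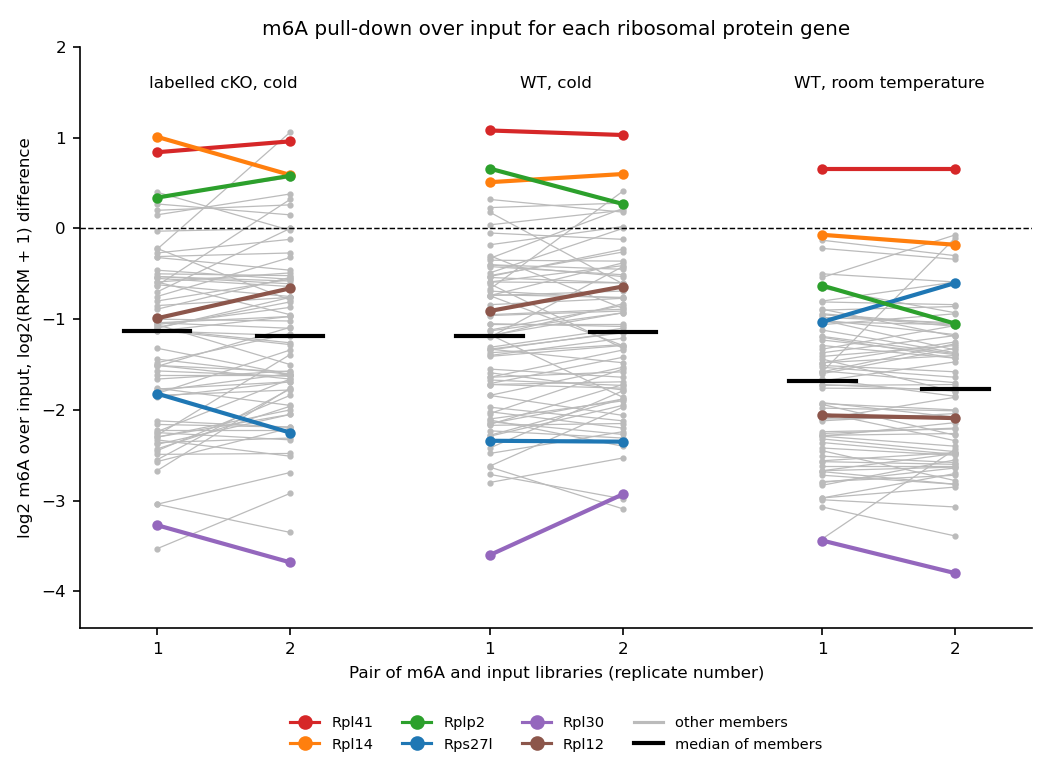
The difference of log2(RPKM + 1) between each m6A library and the input of the same replicate number, for 77 ribosomal protein genes, in libraries labelled cKO, WT cold and WT RT. Lines join the 2 pairs of a group, and black bars are the members' medians. Rpl41 lay above 0 in all 6 pairs and Rpl30 at or near the bottom, and Rplp2 and Rpl14 lay above 0 in the 4 cold pairs and under 0 in the WT RT pairs.

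Ratios of m6A over input were higher in the WT cold pairs than in the WT RT pairs for most members. In the main fit, which did not pair libraries, no single member passed the test of that difference. The difference of the log2 ratios (WT cold minus WT RT) had a median of 0.58 over the members and 0.11 over all genes. Of 77 members, 0 were called higher and 0 lower by limma, against 0.023% and 0.0383% of all genes. At an unadjusted p under 0.05, 1140 genes of the table were higher and 346 lower. In 66 of 77 members both WT cold pairs lay above both WT RT pairs, as in 36.7% of all genes, and in 3 both lay below, as in 18.4%. With the replicate number as a block, 31 members were higher and 1, Rps27l, lower, against 1.7% and 0.367% of all genes. The difference shares the WT cold and WT RT inputs with the fall of the input levels.

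Rplp2 and Rpl12 moved most among well-covered members. Rplp2 had pair ratios of 0.66 and 0.27 in WT cold, against -0.63 and -1.05 in WT RT (difference 1.30 ± 0.22, adjusted p = 0.0795, and 0.0250 with the block). Rpl12 had a difference of 1.30 ± 0.23 (adjusted p = 0.0965, and 0.0226 with the block). Rpl15, an rRNA-binding protein of the large subunit, had 1.04 ± 0.20 (adjusted p = 0.107, and 0.0306 with the block). Rps27l went the other way, with pair ratios of -2.34 and -2.35 in WT cold, against -1.03 and -0.60 in WT RT (-1.53 ± 0.25, adjusted p = 0.0795, and 0.0250 with the block). The m6A values of Rps27l rested on 12 and 16 reads in WT cold and 29 and 29 reads in WT RT. Its input was not called lower in the cold. Rps23, with the largest difference, rested on 19 and 44 reads in the WT cold m6A libraries (1.32 ± 0.58, adjusted p = 0.423).

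Between the libraries labelled cKO and WT cold, no member passed the test of the difference in m6A over input in the main, unpaired fit. The difference (cKO cold minus WT cold) had a median of -0.05 over the members and -0.15 over all genes. The members' median ran from -0.17 to 0.08 on leaving out 1 library and was 0.14 with median-ratio scaling. Its distance from the all-gene median of the same fit (members minus all) ran from -0.045 to 0.249 on leaving out 1 library. Of 77 members, 0 were called in either direction by limma, as were 0 of all genes. At an unadjusted p under 0.05, 159 genes of the table were higher and 1152 lower. Differences ran from -0.87 ± 0.29 for Rps29 (adjusted p = 0.322) to 0.55 ± 0.58 for Rps23 (adjusted p = 0.834). In 19 of 77 members both pairs labelled cKO lay below both WT cold pairs, as in 35.4% of all genes, and in 12 both lay above, as in 11%. With the block 1 member was lower, Rplp1 (-0.53 ± 0.11, adjusted p = 0.0430), against 3.04% of all genes. The ratios of members in the libraries labelled cKO lay 0.90 under the all-gene median, against 0.95 under it in WT cold.

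Ribosomal protein mRNAs were also well represented among the footprints. The sum over members was 35436 and 48331 RPKM in the footprint libraries labelled cKO, against 31779 and 16268 RPKM in WT cold. Gm20594 took 40.9% and 36.1% of the RPKM in the footprint libraries labelled cKO, and 44.6% and 64.3% in WT cold. Outside Gm20594, Lars2 and mitochondrially encoded genes, members held 4.05% and 5.65% of footprint RPKM in the libraries labelled cKO, against 3.86% and 2.17% in WT cold. The second WT cold library was the lowest of the 4 for 71 members, and the second library labelled cKO the highest for 61.

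Of 76 members tested in footprints, 3 were higher in the libraries labelled cKO and 0 lower (limma, adjusted p under 0.05), against 5.61% and 1.54% of all 12763 genes. At an unadjusted p under 0.05, 523 genes of the table were lower. The median log2 difference was 0.93 over the members and 0.42 over all genes. Without the second WT cold library it was 0.36 over the members and 0.33 over all genes, and without the first 1.42 over the members and 0.51 over all genes. In 43 of 76 members both values of the libraries labelled cKO were above both WT cold values, as in 47.5% of all genes, and in 1, Rpl39l, they were below, as in 8.02%. With median-ratio scaling, 0 members were called higher, as were 1.04% of all genes. Without the first WT cold footprint library 46 members were called higher, against 6.01% of all genes. Without the second WT cold library, or without either library labelled cKO, 0 were.

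The 3 called members were Rps16, Rpl41 and Rpl39. Rps16 had 519 and 618 RPKM of footprints in the libraries labelled cKO, against 286 and 139 in WT cold (1.50 ± 0.33, adjusted p = 0.0346). Rpl41 had 320.0 and 272 RPKM in the libraries labelled cKO, against 154 and 83.6 in WT cold (1.37 ± 0.30, adjusted p = 0.036). Rpl39, which lines the exit tunnel, had 1915 and 2387 RPKM in the libraries labelled cKO, against 1158 and 805 in WT cold (1.15 ± 0.26, adjusted p = 0.0378). None of the 3 overlapped between the groups. Rps27a had 819 and 1529 RPKM in the libraries labelled cKO, against 571 and 281 in WT cold (1.48 ± 0.39, adjusted p = 0.0531). Rplp0 had 239 and 333 RPKM in the libraries labelled cKO, against 189 and 95.4 in WT cold (1.06 ± 0.33, adjusted p = 0.0758). Rplp1 had 160 and 192 RPKM in the libraries labelled cKO, against 215 and 110 in WT cold, so that the groups overlapped.

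Footprint levels differed widely among the members. In 8 members all 4 footprint libraries were under 50 RPKM: Rpl3l, Rpl10, Rpl13a, Rpl29, Rpl35, Rpl39l, Rps10 and Rps18. Rpl29 had 14.4 and 22.9 RPKM of footprints in the libraries labelled cKO and 14.2 and 14.2 in WT cold. Rpl35 had 0 and 3.08 RPKM in the libraries labelled cKO and 0 and 1.42 in WT cold. Rps18 had 32.3 and 23.2 RPKM in the libraries labelled cKO and 34.2 and 3.45 in WT cold. Rpl10 and Rps10 were listed at 0 in every footprint library. How footprint reads that match several places were counted is not given in the sources used here. Rpl39l had 0 and 7.42 RPKM in the libraries labelled cKO, against 7.84 and 10.3 in WT cold (-1.78 ± 0.79, adjusted p = 0.168). Without the second library labelled cKO it was called lower, at -3.32 (adjusted p = 0.0220).

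**Figure D5:**
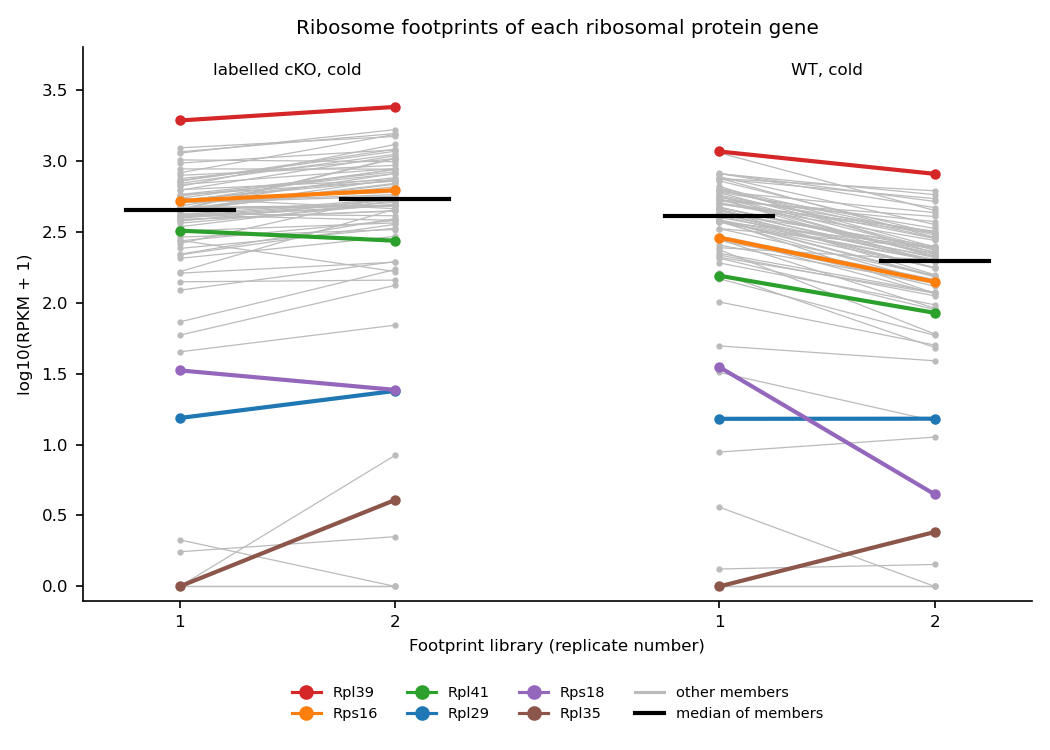
Footprints of the 78 ribosomal protein genes as log10(RPKM + 1) in the libraries labelled cKO and in WT cold. Lines join the 2 replicates of a group, and black bars are medians. The members' median was 445 and 535 RPKM in the libraries labelled cKO, against 404 and 196 in WT cold, while Rpl29, Rps18 and Rpl35 stayed under 50 RPKM throughout.

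Footprints per input, a measure of translational efficiency, showed no member that differed between the groups by the test of the difference. The change of the log2 ratio of footprint over input (cKO cold minus WT cold) had a median of 0.14 over the members and 0.00 over all genes. Size and sign of the members' median rested on single footprint libraries. It was 0.40 without the first and -0.09 without the second library labelled cKO, and 0.71 without the first and -0.34 without the second WT cold library. By limma 0 of 76 members were called in either direction, as were 0 of all genes. At an unadjusted p under 0.05, 195 genes of the table were higher and 264 lower. Values ran from -2.81 ± 1.12 for Rpl39l to 1.10 ± 0.52 for Rpl9, and both had an adjusted p of 1. A p that misses the threshold does not show that the ratios were alike, and standard errors of abundant members, such as 0.46 for Rplp0 and 0.36 for Rps6, limit what could be seen.

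Markers of T and B cells, scarce in the cold inputs, were well represented among the footprints. T and B cell markers summed to 1299 and 447 RPKM in the footprint libraries labelled cKO and to 628 and 448 in WT cold, and none of the 16 markers was at 0. In the matching cold inputs they summed to at most 11.7 RPKM. Macrophage markers summed to 9828 and 5686 RPKM in the footprint libraries labelled cKO, against 3564 and 4341 in WT cold. Of 13 tested, 6 were higher, against 5.61% of all genes, and 2 with median-ratio scaling, against 1.04%. The part of these cells in the footprints of ribosomal protein mRNA, and in the ratio to input, was not tested.

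Among members with a RefSeq start, medians of those with and without a pyrimidine tract lay close together. With cold, the median log2 difference of the inputs was -1.62 over 27 members with a tract and -1.57 over 30 without. For the libraries labelled cKO against WT cold it was 0.67 with a tract and 0.72 without in the inputs, and 0.78 with a tract and 0.99 without in the footprints. Change of footprint over input had medians of 0.07 with a tract and 0.23 without. The ratio of m6A over input in WT RT was -1.58 with a tract and -1.67 without. Rpl12 and Rps16, shown above with and without a tract, were the members with the largest falls in the cold. Being without a tract means here only that no such run begins within 5 bases of an annotated start. The part of the tract in these changes was not tested.

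Other genes of translation were read from lists that include proteins on the ribosome, assembly factors and regulators of TOP mRNAs. Among 23 genes of ribosome-bound proteins and elongation factors, WT cold was lower than WT RT in 18 and higher in 0, against 51.2% and 6.52% of all genes. Their median was -1.06, against -0.67 over all genes. Fau, which encodes a small subunit protein fused to a ubiquitin-like one, fell by 2.16, and Rack1, a scaffold on the small subunit, by 1.99. Eef1a1, which brings tRNAs to the ribosome, had 1051 and 1136 RPKM in WT cold, against 2283 and 2283 in WT RT. With median-ratio scaling 8 were lower and 4 higher. In the inputs labelled cKO, 9 of the 23 were higher and 0 lower than in WT cold, among them Eef1g (1.15 ± 0.15), Rack1 (0.98 ± 0.13) and Fau (0.88 ± 0.14). The share over all genes was 23.6%, and 1 of the 23 was higher with median-ratio scaling.

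Of 46 ribosome assembly genes, WT cold was lower than WT RT in 32 and higher in 0, against 51.2% and 6.52% of all genes. Their median was -0.84, against -0.67 over all genes, and 7 were lower and 4 higher with median-ratio scaling. Fbl, the methyltransferase of box C/D particles, fell by 2.05, and Tcof1, a nucleolar factor of rRNA synthesis, by 2.11. In the inputs labelled cKO 14 were higher and 0 lower than in WT cold, against 23.6% and 2.92% of all genes. Their median was 0.53, against 0.40 over all genes, and 2 were higher and 1 lower with median-ratio scaling. Rrp9 (1.54 ± 0.28), Rrs1 (1.41 ± 0.27) and Nhp2 (1.34 ± 0.18) rose the most. In m6A over input this list was not depleted like the members: its medians were 0.05 in the libraries labelled cKO, 0.06 in WT cold and -0.20 in WT RT. Most of the 23 genes of ribosome-bound proteins and elongation factors, however, were lower in m6A than in input. In the libraries labelled cKO 14 were lower and 2 higher, against 35.2% and 11.4% of all genes. In WT cold 13 were lower and 3 higher, against 25.6% and 13.7% of all genes. In WT RT 17 were lower and 2 higher, against 34.6% and 16% of all genes.

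Of 20 regulators of ribosome genes and TOP mRNAs, WT cold was lower than WT RT in 10 and higher in 1, against 51.2% and 6.52% of all genes, with a median of -0.64. With median-ratio scaling 1 was lower and 4 higher. Mtor, the kinase that governs TOP translation, was the higher one, at 31.9 and 35.9 RPKM in WT cold, against 21.5 and 20.7 in WT RT (0.66 ± 0.16). In the inputs labelled cKO it was lower, with 17.4 and 21.5 RPKM there, against 31.9 and 35.9 in WT cold (-0.78 ± 0.16, adjusted p = 0.0157). Larp1, the repressor that binds TOP mRNAs, had 40.4 and 44.6 RPKM in the inputs labelled cKO, against 29.8 and 27.1 in WT cold (0.56 ± 0.13, adjusted p = 0.0228), and 29.8 and 27.1 RPKM in WT cold, against 46.5 and 46.9 in WT RT (-0.70 ± 0.13). Myc, a transcription factor of ribosome genes, fell by 2.10 in WT cold. In the inputs labelled cKO 4 of the 20 were higher and 1 lower, against 23.6% and 2.92% of all genes, and 0 higher and 2 lower with median-ratio scaling.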

How the data were processed

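Input RNA, RNA captured with an anti-m6A antibody and ribosome footprints were measured in 16 libraries. The authors deposited RPKM values for 17883 genes in 1 matrix. The submitters' processing notes name HISAT2 and build mm10 with no version. The counting tool, the annotation, the reads used for scaling and the handling of reads that match several places are not given in the sources used here. Whole reads were recovered from the RPKM steps (100.0% of genes, tolerance 0.001 read plus 3e-08 of the reads). They were used to give depth, reads of single members and input lengths, and entered no test.

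Values were analysed as log2(RPKM + 1) with limma 3.58.1 (R 4.3.3; lmFit, eBayes with trend, two-sided) on genes with at least 1 RPKM in 2 libraries of a fit. All 6 inputs formed 1 fit, the 12 input and m6A libraries another, and the 8 cold input and footprint libraries the last. P-values were adjusted by Benjamini-Hochberg over all genes of a fit, with a threshold of 0.05. Groups of 2 allow no exact permutation test under p = 0.333. The method was tested on simulated data. Figures and sums were made in Python 3.11.15.

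Libraries of 1 condition with the same replicate number deviated together (correlations over 11773 genes of 0.341 to 0.578 between input and m6A, and 0.239 and 0.286 between input and footprints), while across conditions correlations were -0.069 to 0.106. The main fits left this pairing out and treated all libraries as independent. Pair ratios, and the replicate block in tests of ratios to input, paired libraries of a condition by number, which the labels do not state. Alternatives were another pseudocount, filter, scaling, set of libraries or replicate block, and leaving out each library.

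Members, gene lists and alternatives were chosen with earlier results of these data known. Members were named by rule: stalk genes, Rpsa, Rps6, paralogs and their partners, the 5 largest called changes in each direction, members called against the majority, up to 5 members not called, and the extremes of level. Rpl3l did not pass the filter in the inputs and m6A libraries, nor did Rpl10 and Rps10 in the cold inputs and footprints. Genes named beyond the rule (among them Rpl5, Rpl11, Rpl15, Rpl18, Rpl29, Rpl35, Rps18 in footprints, Rps20, Eef1a1, Larp1 and Mtor) were chosen after their values were seen. Some genes that the rule or a count covers are not reported here by name.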

Additional observations from a re-analysis of the deposited data

Results flagged for a closer look

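For 4 members named here, m6A over input had one sign in both WT cold pairs of libraries and the opposite sign in both WT RT pairs. The difference (WT cold minus WT RT, log2) was 1.30 for Rplp2, 0.92 for Rpl4, 0.68 for Rpl14 and 0.47 for Rpl28, each above 0 in WT cold and below 0 in WT RT. Rpl4 had pair ratios of 0.04 and 0.20 in WT cold, against -0.66 and -0.93 in WT RT. Rpl28 had 0.32 and 0.18 in WT cold, against -0.13 and -0.30 in WT RT. By limma none of the 4 differences had an adjusted p under 0.05. With the replicate number as a block, that of Rpl4 (adjusted p = 0.0226) and that of Rplp2 (adjusted p = 0.0250) did. For 1 member, Rpl17, both pairs labelled cKO were above 0 (0.20 and 0.26) and both WT cold pairs below it (-0.05 and -0.12). That difference was 0.32 ± 0.19 (adjusted p = 0.633). Where 0 lies in these ratios depends on how libraries were scaled. In WT RT, Rpl14 turned to 0.25 with quantile normalization and to 0.16 with scaling outside mitochondrial genes, Lars2 and Gm20594. That last scaling also moved the members' median from -1.73 to -1.44 in WT RT and from -1.06 to -0.77 in WT cold.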

How the results depend on the processing

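Depth limits members with few reads (Rpl10, Rps10, Rpl39l, and in m6A also Rps23 and Rps27l), and groups of 2 limit every test. The scaling of RPKM decides the counts in the inputs labelled cKO and in the footprints. The cause of the changes below was not tested. Counts called lower in WT cold inputs and in m6A stayed within 1.5 times under all alternatives.

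Of 61 members higher in the inputs labelled cKO, 2 were called with median-ratio scaling, 38 with quantile normalization, 18 with all 16 libraries in 1 fit, 45 with scaling outside mitochondrial genes, Lars2 and Gm20594 (added after seeing the data), and 47 to 55 without a library. Against 1 member higher in WT cold inputs, median-ratio, quantile and added scaling gave 2, the fit of 16 libraries 0, and leaving out a library 1 to 2. In m6A, 1 member higher in WT RT became 2 (quantile) and 0 (16 libraries). The 3 in WT cold became 6 (quantile and added scaling), 1 (16 libraries), 5 (replicate block) and 1 to 3 without a library. The 4 in libraries labelled cKO became 8 (quantile and added scaling), 1 (16 libraries) and 2 to 4 without a library. For the change of m6A with cold, 0 higher and 0 lower became 4 and 1 with quantile normalization. In footprints, 3 higher became 0 (no filter, median-ratio and added scaling), 9 (filter of 5 RPKM), 1 (quantile), 35 (16 libraries) and 0 to 46 without a library, and 0 lower became 0 to 1.

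For ratios to input, the replicate block rests on the pairing of libraries of a condition by number. It gave 31 higher and 1 lower for the change of m6A with cold, and 1 lower for that between libraries labelled cKO and WT cold. Between inputs or between footprints the block was 1 replicate term shared by all groups, although libraries of different conditions hardly deviated together. There it gave 57 higher in the inputs labelled cKO and 4 higher in footprints. Beside the count in WT cold m6A given above, the block moved no other count by over 1.5 times.

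Signs turned for members near 0. With cold, Rps10 gave 0.011 (pseudocount 0.1), 0.29 (median-ratio), 0.79 (quantile), 0.059 (added scaling) and -0.63 to 0.18 without a library, Rpl24 0.076 and Rpl9 0.039 (median-ratio). For libraries labelled cKO against WT cold inputs, median-ratio scaling gave Rplp2 -0.20, Rps27l -0.40, Rpl24 -0.32 and Rpl9 -0.22, and quantile normalization gave Rplp2 -0.04, Rps27l -0.26 and Rpl9 -0.066. Rps27l gave -0.062 with added scaling and -0.058 to 0.217 without a library, and Rpl10 -0.32 to 0.17 without a library. In WT RT m6A over input, Rpl14 gave 0.25 (quantile) and 0.16 (added scaling). Rps23 gave -0.16 to 1.251 for the m6A difference between libraries labelled cKO and WT cold without a library.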
